A study of Homo sapiens with 6 samples.

Results

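The genes described here are 32 members and targets of the hypoxia-inducible factor (HIF) pathway, taken by name from a table of 26748 genes measured by RNA sequencing in M14 cells. M14 is an established human melanoma line. The list holds 9 regulators, which are the HIF subunits and the proteins that control them, and 23 target genes. All 32 had a row in the table, and all 32 passed the filter on low values (at least 10 normalised counts on average), as did 15598 genes in all.

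The study compared conventional adherent culture on plastic (2D, 3 libraries) with non-adherent culture (3D, 3 libraries), in which the cells grow as floating melanospheres, and its stated interest was the cell populations each culture holds. No treatment, genotype change, culture time or oxygen level is given in the labels for either culture, and all 6 libraries come from the same line. Whether replicates came from separate cultures is not in the labels. The p-values therefore cover the spread between libraries alone, which may be technical.

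HIF is a transcription factor made of an oxygen-regulated alpha subunit, HIF-1alpha (gene HIF1A) or HIF-2alpha (EPAS1), and the stable partner ARNT. When oxygen is present, prolyl hydroxylases (EGLN1, EGLN2 and EGLN3) mark the alpha subunit, and VHL, the recognition part of a ubiquitin ligase, sends it for degradation. HIF1AN hydroxylates the alpha subunit at an asparagine and so blocks its coactivator. When oxygen is short, HIF accumulates as protein and binds short sites with the core RCGTG near genes for pH control, blood vessel growth, mitochondrial turnover and anaerobic metabolism. Because this control acts mainly on protein, the mRNA levels given here do not measure HIF protein or its activity.

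The transcript of EPAS1 fell in 3D while that of HIF1A differed by less than the spread between libraries. Among the 23 targets, 10 rose (43.5%, where 12.5% of all genes tested rose). The rises ranged from 2.25-fold for BHLHE40 to 21.2-fold for PPFIA4 and 58.6-fold for CA9 by the ratio of the mean levels. CA9 had only 4 reads in 2D and 5 in 3D replicate 2, and its call did not hold with every library left out. CA9 and BHLHE41 passed the filter on low values only through 3D, and without them 9 of 21 targets rose (42.9%). Of the 10 targets that rose, 7 were lowest, among the 3D libraries, in replicate 2, as were 42% of all genes tested. VEGFA, STC2 and DDIT4 did not rise, and the size of their change, and for DDIT4 its sign, depended on 2D replicate 3.

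The core RCGTG stands for the pair of words ACGTG and GCGTG, and both were searched on both strands of promoter windows that run from 250 bases before to 50 bases after the start site. The windows are those of RefSeq (GRCh38.p14). Of the 23 targets, 18 had a window and 16 of those held a match, with RORA and TMEM45A the exceptions. Counted over windows, 20 of 23 target windows (87%) held either word, against 48.4% of all 35116 windows of the same length. Some genes, such as AK4 and MXI1, gave several windows, and the other windows were not matched for base content. These shares are therefore not a test of enrichment. Among targets that rose, 7 of 8 with a window held a match, and among those that did not pass the test, 9 of 10 did, so the match did not separate them. Of 8 regulators with a window, 5 held a match, and ARNT, EGLN3 and HIF1AN did not. VEGFA, STC1, BNIP3L, HILPDA, NDRG1 and VHL had no window. A match is a description of the sequence and not evidence of binding.

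The stretches printed here, each 5′ to 3′ on the strand of its gene, show what these matches look like in the 3 targets with the largest rises, in a pair of mitochondrial targets with several matches, and in ANKRD37, a target with 3 matches that did not pass the test. Capitals mark ACGTG or GCGTG on either strand, so that CACGT and CACGC are matches on the opposite strand. A run of CACGTG, a palindrome found in 7.26% of all windows, counts once on each strand. The CA9 stretch (chr9:35673897-35673926, + strand) lies directly before the RefSeq start site, in the first exon of the longest CA9 transcript of GENCODE 29. The stretches of PPFIA4 (chr1:203026361-203026421, + strand), MIR210HG (chr11:568587-568647, - strand), BNIP3 (chr10:131982014-131982073, - strand) and FAM162A (chr3:122384082-122384162, + strand) lie upstream of their genes. The ANKRD37 stretch (chr4:185396676-185396705, + strand) lies before its RefSeq start site.
CA9: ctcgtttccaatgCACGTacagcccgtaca
PPFIA4: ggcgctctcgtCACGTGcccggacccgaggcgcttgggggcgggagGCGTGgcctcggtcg
MIR210HG: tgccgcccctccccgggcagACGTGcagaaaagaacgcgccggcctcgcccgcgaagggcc
BNIP3: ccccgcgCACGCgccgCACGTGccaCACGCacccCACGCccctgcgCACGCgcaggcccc
FAM162A: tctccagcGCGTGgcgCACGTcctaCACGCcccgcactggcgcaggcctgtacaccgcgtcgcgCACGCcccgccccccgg
ANKRD37: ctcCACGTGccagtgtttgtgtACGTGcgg
BNIP3 and PPFIA4, which rose, and ANKRD37, which did not pass, all hold the palindrome, and CA9 holds a single word.

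Values are given in normalised counts, which are read counts divided by 1 size factor per library. Library totals were 16567763 to 19954987 reads, with 20841 to 23572 genes detected. A gene is said to rise or fall where limma, on log2(value + 1), gave an adjusted p under 0.05 over the 15598 genes. By this rule 1950 genes (12.5%) rose and 1816 (11.6%) fell in 3D, and the median log2 change was -0.02. When the libraries were scaled to equal totals instead, the median moved to 0.11 and the split to 2392 higher and 1253 lower. On the first principal component of all genes, 2D replicate 3 stood apart from the other 2D libraries and lay between them and the 3D libraries, so results that rest on it are given with and without it. Counts came from whole cultures, in which more cells with a transcript and more of it in each cell cannot be told apart.

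The labelled cell type was checked with 9 melanocytic markers. SOX10, MLANA, TYR, TYRP1 and S100B, which define the lineage, were under the filter, with means of 5.13 (S100B) to 16.1 (SOX10) normalised counts in 2D and 0.323 (TYR and S100B) to 8.26 (MLANA) in 3D. Of the 4 markers tested, MITF and DCT fell, S100A1 rose and PMEL did not pass, and the log2 change was above 0 for 2, with a median of -0.27. MITF, the master regulator of melanocytes, fell from 1131 ± 215 to 288 ± 19.0 (SD, n = 3 each; adjusted p = 0.00077). S100A1, a calcium-binding protein, rose from 17.9 ± 13.2 to 76.8 ± 7.46 (adjusted p = 0.02), a call lost without 2D replicate 2 or 3D replicate 1 or 3 (adjusted p of up to 0.085). The summed level of the list was 1612 to 1905 in 2D and 979 to 1750 in 3D. The summed level of 3 immune markers was 1.91 to 7.23 over all libraries. Of 4 fibroblast markers with a row, DCN and THY1 were near 0, and the sum, made up of COL1A1 and COL3A1, was 1980 to 6011 in 2D and 8282 to 11966 in 3D. Epithelial markers summed to 475 to 549.9 in 2D and 140 to 212 in 3D, and endothelial markers to 604 to 1039 and 670 to 885. The part of these markers in the results for HIF genes was not tested.

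Of the 9 regulators, EGLN2 and EGLN3 rose (22.2% of the list, where 12.5% of all genes rose) and EPAS1, ARNT and EGLN1 fell (33.3%, where 11.6% of all genes fell). Their median log2 change was -0.31, against -0.02 for all genes. EPAS1 and EGLN3 kept their calls in each of the 6 fits with a library left out, and ARNT, EGLN1 and EGLN2 did not.

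EPAS1 (ENSG00000116016, chr2:46293667-46386703, + strand) encodes HIF-2alpha, the alpha subunit best known from blood vessels, kidney and neural crest tumours. Its normalised counts were 19955, 22301 and 13608 in the 2D libraries and 2965, 3841 and 3365 in the 3D libraries. The groups did not overlap, and the lowest 2D library, replicate 3, was still far above the highest 3D library. The mean fell 5.49-fold, from 18621 ± 4498 to 3390.4 ± 438 (log2 change -2.43, SE 0.23, adjusted p = 0.00058), and the log2 change was -2.65 to -2.29 with a library left out.

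HIF1A (ENSG00000100644, chr14:61695513-61748259, + strand) encodes HIF-1alpha, which is found in nearly all cells. It had 4978, 5028 and 4364 normalised counts in 2D and 4957, 5709.6 and 4908 in 3D, and the groups overlapped (log2 change 0.12, SE 0.16, adjusted p = 0.63).

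Levels of the alpha subunits can be compared only per length of exon. EPAS1 had 2550.2 ± 616 normalised counts per kb in 2D and 464 ± 60.0 in 3D, and HIF1A had 929.9 ± 71.8 and 1008 ± 87.2. The ratio of EPAS1 to HIF1A per kb was 2.83, 3.13 and 2.20 in the 2D libraries and 0.422, 0.475 and 0.484 in the 3D libraries. EPAS1 was thus the more abundant alpha subunit transcript in every 2D library and HIF1A in every 3D library. The exact permutation test over libraries gave a two-sided p of 0.1, the smallest that 3 against 3 libraries allow. The same p was found for each of the 4 ratios of members computed, and it was 0.1 after Benjamini-Hochberg adjustment.

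ARNT, the partner of both alpha subunits, had 1438, 1490.2 and 1336 normalised counts in 2D and 895, 889.9 and 963 in 3D. Every 3D library was below every 2D library (log2 change -0.63, SE 0.15, adjusted p = 0.021). Its adjusted p reached 0.094 with a library left out, and its call was lost without 2D replicate 1 or 2 or 3D replicate 1 or 3.

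EGLN1 encodes PHD2, the main prolyl hydroxylase that sets HIF-1alpha levels under normal oxygen. It had 2330.2, 2572 and 1723 normalised counts in 2D and 1477, 1256 and 1250.1 in 3D, with no overlap. The log2 change was -0.72 (SE 0.19, adjusted p = 0.031), and the call was lost in each fit with a library left out except the one without 2D replicate 3 (adjusted p of 0.0018 to 0.12). It was also lost when libraries were scaled to equal totals (log2 change -0.59, adjusted p = 0.062).

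EGLN3 (ENSG00000129521, chr14:33924231-34462774, - strand) encodes PHD3, a hydroxylase whose gene is itself a strong HIF target. It had 36.2, 39.5 and 143 normalised counts in 2D and 745, 542 and 722 in 3D. The highest 2D library, replicate 3, stood at well under the lowest 3D library. The mean rose 9.19-fold, from 72.9 ± 60.7 to 669 ± 111 (log2 change 3.47, SE 0.48, adjusted p = 0.0028), and the log2 change was 4.10 without 2D replicate 3.

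Per kb of exon, EGLN3 was lower than EGLN1 in every library. The ratio of EGLN3 to EGLN1 was 0.0153, 0.0152 and 0.0819 in 2D and 0.498, 0.426 and 0.570 in 3D, so the gap between these hydroxylases was narrower in each 3D library.

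EGLN2 encodes PHD1, a hydroxylase not usually counted among HIF targets. It had 37.2, 83.3 and 62.7 normalised counts in 2D and 238, 151 and 285 in 3D, with no overlap (log2 change 1.89, SE 0.37, adjusted p = 0.01). Without 3D replicate 1 or 3 the call was lost (adjusted p of up to 0.059). Its level is uncertain, since 26.4% of the 75-base windows of its exons are also found in the readthrough gene RAB4B-EGLN2.

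HIF1AN, the asparagine hydroxylase, had 2185 ± 157 normalised counts in 2D and 1759 ± 70.8 in 3D and did not pass (adjusted p = 0.16). VHL had 3395 ± 533 and 3223 ± 89.7 (adjusted p = 0.81). CITED2 competes with HIF for its coactivator and is induced by HIF. It had 1774, 1664 and 10672 normalised counts in 2D and 1474, 1256 and 1542 in 3D. 2D replicate 3 was far above the other libraries, and the log2 change was -1.15 with it (adjusted p = 0.2) and -0.28 without it (adjusted p = 0.16).

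**Figure D1:**
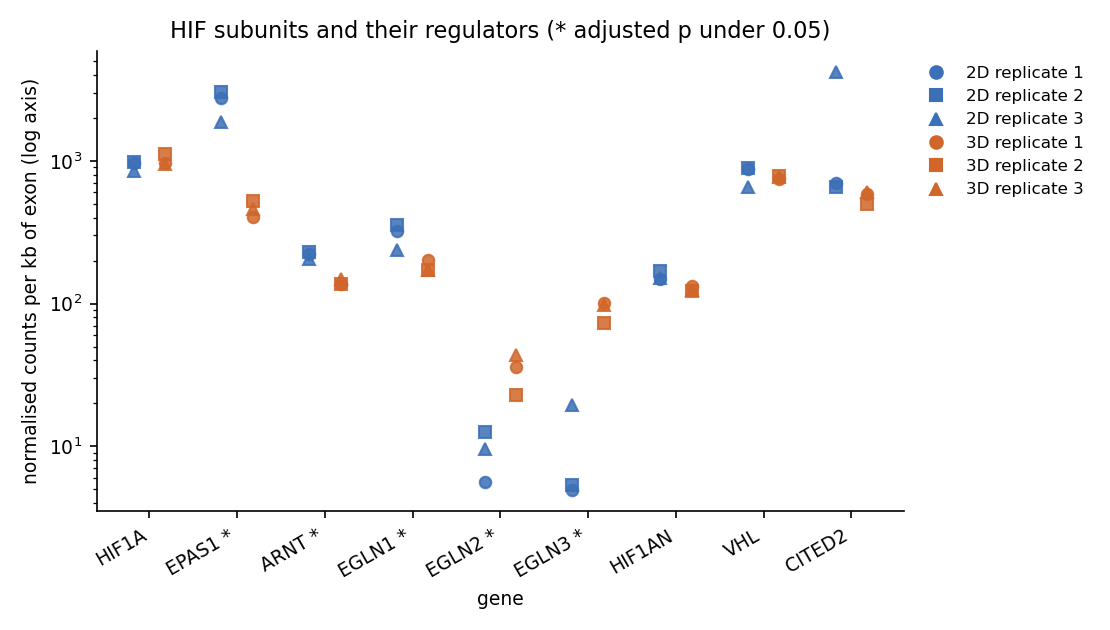
Level of the 9 regulators in each library, in normalised counts per kb of exon on a log axis, with 2D libraries in blue and 3D libraries in orange and a symbol for each replicate number; an asterisk marks an adjusted p under 0.05. EPAS1 lay above HIF1A in the 2D libraries and below it in the 3D libraries, and CITED2 in 2D replicate 3 stood apart from the other libraries.

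In a wider list of 16 regulators that are not among the 32 genes, 2 rose (12.5%, the same share as the 12.5% of all genes) and 3 fell (18.8%, where 11.6% of all genes fell), with a median log2 change of -0.15. ARNT2, a relative of ARNT, rose from 72.4 ± 20.2 to 344 ± 154 (adjusted p = 0.0068), and HIF3A, a further alpha subunit, from 19.0 ± 5.14 to 76.0 ± 30.5 (adjusted p = 0.015). CITED4, a relative of CITED2, fell 11.6-fold, from 8707 ± 2509.5 to 752 ± 164 (log2 change -3.51, adjusted p = 0.00031). CREBBP, a HIF coactivator, fell from 5239.6 ± 2344 to 1822 ± 57.2 (adjusted p = 0.012), and SIAH2, a ubiquitin ligase of the prolyl hydroxylases, from 1308 ± 254 to 766 ± 96.7 (adjusted p = 0.03). Of these 5 calls, those of ARNT2 and CITED4 held with any library left out. HIF3A and CREBBP lost theirs without 3D replicate 1 or 3 (adjusted p of up to 0.079 and 0.057), and SIAH2 without any library other than 2D replicate 3.

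Of the 23 targets, 10 rose (43.5%, where 12.5% of all genes rose) and 0 fell (where 11.6% of all genes fell). The regulators are not among these 23, so EGLN3, which rose, and EGLN1, which fell, are not counted here. At an unadjusted p under 0.05, limma had 13 targets higher and 0 lower, and the share of all genes at that threshold is not given here. edgeR called 0 lower (11% of all genes) and DESeq2 called 1, STC2 (14.8% of all genes). The log2 change was above 0 for 21 targets and its median was 0.96, against -0.02 for all genes. CA9, which rose, and BHLHE41, which did not, had a 2D mean under 10 and passed the filter on low values only through 3D, where CA9 was high, so that its place among the 10 is not independent of the filter. Of the other 21 targets, 9 rose (42.9%), with the same median. Every 3D library was above every 2D library for 13 targets (56.5%), where this held for 20.5% of all genes. The 13 include CA9, which passed the filter only through 3D and had 5 reads in 3D replicate 2. With a library left out the number that rose was 8 to 13, while 3.42% to 22.6% of all genes rose, and 8 of the 10 kept their call in every such fit, the exceptions being CA9 and BNIP3. Without 2D replicate 3, 13 rose (22.6% of all genes did) and VEGFA and STC2 fell (23% of all genes did). Without 3D replicate 2, 13 also rose (10.1% of all genes did) and 0 fell (9.03% of all genes did).

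**Figure D2:**
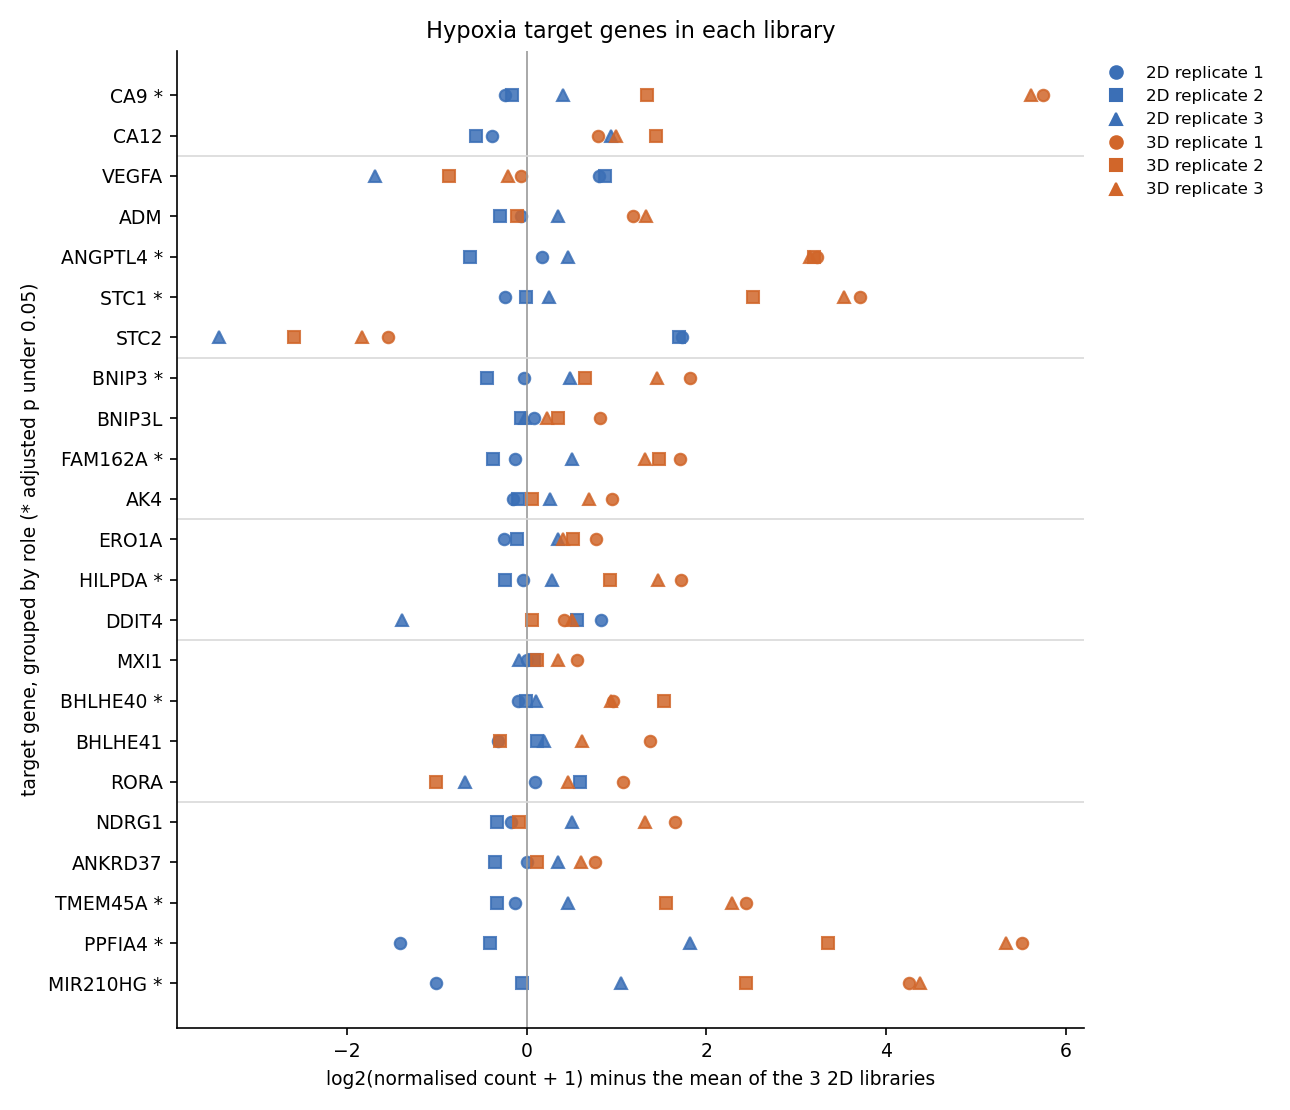
Level of the 23 targets in each library, as log2(normalised count + 1) minus the mean of the 3 2D libraries, with 2D in blue, 3D in orange and a symbol for each replicate number; grey lines separate roles and an asterisk marks an adjusted p under 0.05. The 3D squares (replicate 2) lie left of the other 3D symbols for 17 of the 23 targets, where this library was the lowest for 42% of all genes. The 2D triangles (replicate 3) lie far left for VEGFA, STC2 and DDIT4.

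The targets for pH control are membrane carbonic anhydrases. CA9 (ENSG00000107159, chr9:35673856-35681159, + strand) encodes carbonic anhydrase IX, which faces the outside of the cell and is widely used as a marker of tumour hypoxia. It had 0.953, 1.07 and 2.06 normalised counts in 2D and 122, 4.85 and 111 in 3D. Replicates 1 and 3 of 3D carried nearly all of its reads, and 3D replicate 2 was only slightly above the 2D libraries. CA9 had a 2D mean of 1.36 and entered the test only through its 3D libraries. It passed (log2 change 4.23, SE 1.09, adjusted p = 0.027), with a call lost without 2D replicate 1 or 2 or 3D replicate 1 or 3 (adjusted p of 0.0023 to 0.12) and a log2 change of 5.67 when 3D replicate 2 was left out and of 3.47 and 3.54 when replicates 1 and 3 of 3D were, each in turn.

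In reads, CA9 had 4 in 2D and 245 in 3D, a depth-adjusted ratio of 58.9 (95% interval 22.7 to 217.8, counting error only). The ratio was 86.7 without 3D replicate 2, and 3.59 (0.772 to 18.1) with that library alone as 3D. A rise in 3D replicate 2 was therefore not detectable at this depth. Of the CA9 exons, 38.5% overlap ARHGEF39 on the other strand, which the library kit does not tell apart. ARHGEF39 had 211, 202 and 504 normalised counts in 2D and 265, 215 and 239 in 3D, so it did not share the pattern of CA9.

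CA12, a related carbonic anhydrase also induced by estrogen receptor, had 253, 223 and 632 normalised counts in 2D and 571, 892 and 658 in 3D. 2D replicate 3 lay within the 3D range. CA12 did not pass (log2 change 1.07, SE 0.38, adjusted p = 0.072), and passed without 2D replicate 3 (log2 change 1.54, adjusted p = 0.00081). It was higher than CA9 per kb in every library, with a ratio of CA9 to CA12 of 0.0165, 0.0210 and 0.0142 in 2D and 0.940, 0.0238 and 0.742 in 3D.

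Among 5 secreted factors, ANGPTL4 and STC1 rose, VEGFA and ADM did not pass, and STC2 was far apart between the 2D libraries. ANGPTL4 (ENSG00000167772, chr19:8363289-8374373, + strand) encodes an inhibitor of lipoprotein lipase that also acts on blood vessels. It had 54.3, 31.0 and 66.8 normalised counts in 2D and 461, 449.8 and 438 in 3D. The 3D libraries were nearly equal and far above all 2D libraries. The mean rose 8.87-fold (log2 change 3.19, SE 0.31, adjusted p = 0.00063). In 3D replicate 2, where many targets were low, ANGPTL4 was at the level of the other 3D libraries.

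STC1 and STC2 encode stanniocalcins, paralogous glycoprotein hormones linked to calcium and phosphate handling. STC1 had 68.6, 81.1 and 96.6 normalised counts in 2D and 1079, 472 and 949 in 3D, and rose 10.1-fold by the means (log2 change 3.25, SE 0.33, adjusted p = 0.00076). All 3D libraries were above all 2D libraries, with replicate 2 the lowest of them.

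STC2 had 14901, 14636 and 418 normalised counts in 2D and 1543, 746 and 1265 in 3D. 2D replicate 3 was below every 3D library and the other 2D libraries were far above them. The log2 change was -1.99 (SE 1.19, adjusted p = 0.24), and without 2D replicate 3 it was -3.70 (adjusted p = 4.1e-05). The ratio of STC1 to STC2 per kb was 0.0068, 0.0082 and 0.341 in the 2D libraries and 1.03, 0.934 and 1.11 in the 3D libraries. The stanniocalcins were thus at similar levels per kb in 3D, while STC2 was far above STC1 in 2D replicates 1 and 2.

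VEGFA, the main growth factor for blood vessels and a standard HIF target, had 3519.6, 3689 and 623 normalised counts in 2D and 1927, 1102 and 1739 in 3D. The 3D libraries lay between 2D replicate 3 and the other 2D libraries. The log2 change was -0.38 (SE 0.62, adjusted p = 0.68), and without 2D replicate 3 VEGFA was lower in 3D (log2 change -1.22, adjusted p = 0.0033). The sign turned without 2D replicate 1 or 2 (log2 change 0.028 and 0.062). VEGFA thus did not rise together with the targets that passed, in any of the fits.

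ADM encodes adrenomedullin, a peptide that widens blood vessels. It had 751, 636 and 998 normalised counts in 2D and 1779.6, 724 and 1956 in 3D. 3D replicate 2 lay within the 2D range and the other 3D libraries above it. ADM did not pass (log2 change 0.80, SE 0.37, adjusted p = 0.14) and passed without 3D replicate 2 (log2 change 1.25, adjusted p = 0.015) and with DESeq2 (adjusted p = 0.045).

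Of 4 mitochondrial targets, BNIP3 and FAM162A rose. BNIP3 is a receptor on mitochondria that marks them for removal by autophagy. It had 700.5, 526 and 998 normalised counts in 2D and 2535, 1122 and 1957 in 3D, and did not overlap, although 3D replicate 2 was close to 2D replicate 3. The mean rose 2.52-fold (SE of the log2 change 0.33, adjusted p = 0.025), with a call lost without 2D replicate 1 or 2 or 3D replicate 1 or 3 (adjusted p of up to 0.099).

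FAM162A, a mitochondrial protein linked to cell death under hypoxia, had 442, 370.4 and 683 normalised counts in 2D and 1578, 1338 and 1203 in 3D. The 3D libraries were close together and all above 2D, and the mean rose 2.75-fold (SE of the log2 change 0.25, adjusted p = 0.0053). BNIP3L, the paralog of BNIP3, went from 515 ± 25.8 to 722 ± 165 (adjusted p = 0.12). AK4, an adenylate kinase of the mitochondrial matrix, went from 524 ± 84.6 to 797 ± 237 (adjusted p = 0.13), and passed without 3D replicate 2 (adjusted p = 0.037). The log2 change of both was above 0 in each fit with a library left out.

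HILPDA is a lipid droplet protein that inhibits the lipase ATGL. It had 244, 212 and 304 normalised counts in 2D and 826, 479 and 691 in 3D, with no overlap (log2 change 1.37, SE 0.25, adjusted p = 0.0081), and kept its call with any library left out. ERO1A, an oxidase that forms disulfide bonds in the endoplasmic reticulum, went from 1119 ± 251 to 1639 ± 215. Its groups did not overlap, and it did not pass (adjusted p = 0.074) but passed without 2D replicate 3 (adjusted p = 0.0061) and when the libraries were scaled to equal totals (adjusted p = 0.045).

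DDIT4 encodes REDD1, an inhibitor of the growth kinase mTORC1. It had 7572, 6306 and 1629 normalised counts in 2D and 5689, 4436 and 6061 in 3D. 2D replicate 3 was again the library apart, below all others. The log2 change was 0.33 (SE 0.51, adjusted p = 0.66) and -0.37 without 2D replicate 3 (adjusted p = 0.12). Of its exons, 41.2% overlap DDIT4-AS1 on the other strand.

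Of 4 transcription factors, BHLHE40 rose. BHLHE40 (DEC1) is a repressor of the circadian clock and of lipid genes, and had 862, 914 and 987 normalised counts in 2D and 1789, 2662 and 1762 in 3D. It was the one target that rose for which 3D replicate 2 was the highest library. Its log2 change of 1.14 (SE 0.20, adjusted p = 0.0068) stayed past the threshold with any library left out. Its relative BHLHE41 (DEC2) was low, with 9.87 ± 1.97 and 16.7 ± 9.64 (adjusted p = 0.46). MXI1, an antagonist of MYC, went from 599.9 ± 34.4 to 767 ± 119 (adjusted p = 0.19), and the nuclear receptor RORA from 79.8 ± 33.4 to 99.6 ± 61.0 (adjusted p = 0.84).

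The remaining 5 targets include those with the largest rises after CA9. PPFIA4 (ENSG00000143847, chr1:203026498-203078740, + strand) encodes liprin-alpha-4, a scaffold protein best known from synapses. It had 8.58, 18.1 and 88.4 normalised counts in 2D and 1160 (replicate 1), 259 and 1022 in 3D. 2D replicate 3 was the highest of its culture and 3D replicate 2 the lowest, and the groups still did not overlap. The mean rose 21.2-fold (log2 change 4.73, SE 0.83, adjusted p = 0.0068), and the log2 change was 5.64 without 2D replicate 3 and 5.42 without 3D replicate 2. It was 4.03 when 2D replicate 1, the lowest library, was left out.

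MIR210HG (ENSG00000247095, chr11:565660-568457, - strand) is the long noncoding host transcript of the hypoxia-induced microRNA miR-210. It had 6.67, 13.9 and 30.8 normalised counts in 2D and 291, 82.4 and 319 in 3D. As for PPFIA4, 2D replicate 3 was the highest 2D library and 3D replicate 2 the lowest 3D library, with no overlap. The mean rose 13.5-fold (log2 change 3.69, SE 0.65, adjusted p = 0.0069), and the log2 change was 4.31 without 3D replicate 2 and 4.21 without 2D replicate 3. The microRNA itself was not measured in these poly(A) libraries.

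TMEM45A, a transmembrane protein linked to keratinization and chemotherapy response, had 154, 135 and 234 normalised counts in 2D and 921, 499 and 829 in 3D. The groups did not overlap, and the mean rose 4.30-fold (log2 change 2.09, SE 0.30, adjusted p = 0.0032). NDRG1, a growth-arrest and differentiation gene used in many hypoxia signatures, had 2215, 1983 and 3556 normalised counts in 2D and 7823, 2352 and 6242 in 3D. 3D replicate 2 lay among the 2D libraries, and NDRG1 did not pass (log2 change 0.96, adjusted p = 0.13) but passed without 3D replicate 2 (1.48, adjusted p = 0.018), without 2D replicate 3 (adjusted p = 0.047) and with DESeq2 (adjusted p = 0.03). ANKRD37, a small ankyrin-repeat protein, went from 89.4 ± 21.9 to 126 ± 28.1 (adjusted p = 0.25), and 35.2% of its exons overlap UFSP2 on the other strand.

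**Figure D3:**
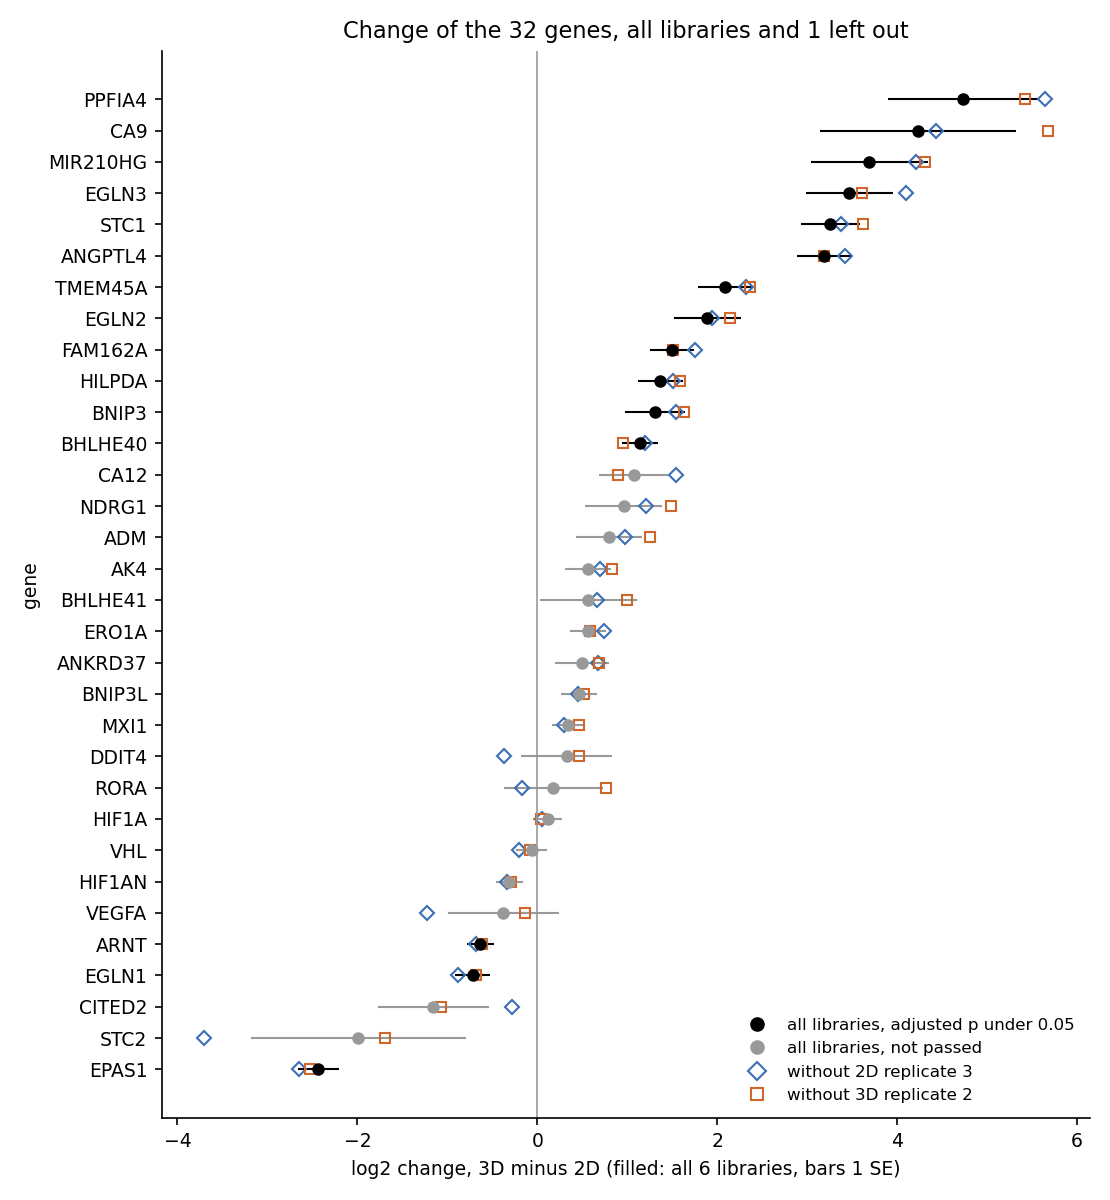
Log2 change of each of the 32 genes (3D minus 2D) from all 6 libraries (filled circles, black where the adjusted p is under 0.05, bars 1 SE), without 2D replicate 3 (blue diamonds) and without 3D replicate 2 (orange squares). STC2 moved most when 2D replicate 3 was left out (from -1.99 to -3.70), and CA9 when 3D replicate 2 was left out (from 4.23 to 5.67).

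A pair of libraries thus recurred through the targets. 3D replicate 2 was the lowest 3D library for 17 of the 23 targets, while it was the lowest for 42% of all genes tested. It was under 0.5 times both other 3D libraries for 7 targets, CA9, ADM, STC1, RORA, NDRG1, PPFIA4 and MIR210HG. 3D replicate 1 was the highest for 18 targets, and the highest for 26.7% of all genes. 2D replicate 3 was the highest 2D library for 17 targets (42.6% of all genes). It was over 2 times both other 2D libraries for CA12, PPFIA4 and MIR210HG and under 0.5 times both for VEGFA, STC2 and DDIT4. The shares of all genes past these limits of 0.5 and 2 times are not given here, so these counts cannot be called particular to the targets. The mean log2 level of the 23 targets, centred so that each gene averages 0, was -0.70, -0.69 and -0.60 in 2D and 1.07, 0.06 and 0.86 in 3D. All 3D libraries were above all 2D libraries in this mean, and 3D replicate 2 lay between the 2D libraries and the other 3D libraries. With both 2D replicate 3 and 3D replicate 2 left out, 18 targets rose and VEGFA and STC2 fell, in a fit in which 28.4% of all genes rose and 29.5% fell.

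VEGFA, STC2 and DDIT4 are also known to respond to ATF4, the transcription factor of the amino acid and endoplasmic reticulum stress response. The mean level of 28 ATF4 stress genes was 2.02, 1.89 and -0.64 in the 2D libraries, with replicate 3 the low one, and -1.22, -0.94 and -1.11 in the 3D libraries. Of these genes 14 fell (50%, where 11.6% of all genes fell) and 0 rose (12.5% of all genes) with limma. At an unadjusted p under 0.05, 25 were lower and 0 higher, and the share of all genes at that threshold is not given here. edgeR called 23 and DESeq2 25 lower (11% and 14.8% of all genes), with 0 higher in both (12.5% and 15.4% of all genes). Without 2D replicate 3, all 28 fell (23% of all genes did), and with another library left out 4 to 6 did (4.21% to 9.03% of all genes). NUPR1, PCK2 and ATF3 had the largest falls among those that passed. ATF3, a transcription factor of the same stress response, fell from 2447 ± 247 to 292 ± 34.9 (log2 change -3.06, adjusted p = 0.00011). NUPR1, a stress-induced chromatin protein, had 2934, 2228 and 23.6 in 2D and 2.78, 24.2 and 8.26 in 3D, and PCK2, a mitochondrial enzyme of gluconeogenesis, had 588, 446 and 18.5 in 2D and 9.29 to 13.6 in 3D. NUPR1 and PCK2 passed (adjusted p = 0.035 and 0.038) and lost their calls in every fit with a library left out except the one without 2D replicate 3. Their log2 changes of -5.83 and -3.86 ranged from -8.06 to -4.61 and from -5.43 to -2.97 over these fits, and were largest without 2D replicate 3 and smallest without 2D replicate 1. VEGFA, STC2, DDIT4 and the mean of this list were thus lower in every 3D library than in 2D replicates 1 and 2. Against 2D replicate 3 they parted. The mean of the list was lower in every 3D library than in 2D replicate 3, while VEGFA, STC2 and DDIT4 were higher. The part of ATF4 in the levels of VEGFA, STC2 and DDIT4 was not tested.

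**Figure D4:**
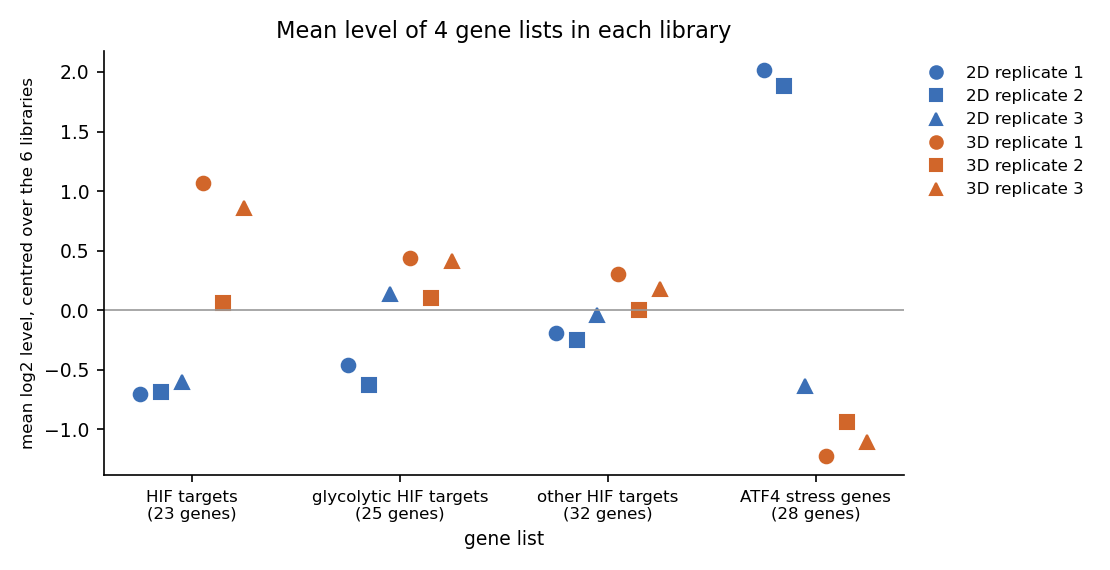
Mean level of 4 gene lists in each library, as log2(normalised count + 1) centred over the 6 libraries, with 2D in blue and 3D in orange. The HIF targets lay at -0.70 to -0.60 in 2D and 0.06 to 1.07 in 3D, and the ATF4 stress genes in 2D replicate 3 (-0.64) lay apart from the other 2D libraries (1.89 and 2.02).

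HIF also drives most enzymes that turn glucose into lactate. A list of 25 genes outside the 32 held such enzymes, with glucose and lactate transporters, glycogen genes and the kinases PDK1 and PDK3. Of the 25 genes 5 rose (20%, where 12.5% of all genes rose) and 0 fell (11.6% of all genes), with a median log2 change of 0.52 and 22 above 0. With limma 10 were higher and 2 lower at an unadjusted p under 0.05, a threshold for which the share of all genes is not given here. edgeR called 0 and DESeq2 1 lower (11% and 14.8% of all genes). PFKFB4, an enzyme that stimulates glycolysis, rose 8.99-fold, from 103 ± 89.9 to 924 ± 431 (adjusted p = 0.007). ALDOC, an aldolase, rose 4.74-fold, from 668 ± 687 to 3163 ± 899 (adjusted p = 0.016), and HK1, a hexokinase, 2.00-fold, from 1422 ± 792 to 2848 ± 270.3 (adjusted p = 0.038). PFKFB4 held its call with any library left out. ALDOC lost its call without 2D replicate 1 or 2 or 3D replicate 1 or 3, and HK1 without any library other than 2D replicate 3. Without 2D replicate 3, 15 of the 25 rose and 2 fell (22.6% and 23% of all genes), and the log2 change grew from 2.69 to 3.50 for ALDOC and from 3.35 to 4.01 for PFKFB4. Without 2D replicate 1 or 2 or 3D replicate 1 or 3, PFKFB4 alone of the list rose, while 3.42% to 6.57% of all genes did. The mean level of the list was 0.14 in 2D replicate 3, near that of 3D replicate 2 (0.10) and above those of the other 2D libraries (-0.46 and -0.63).

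Among 32 tested genes of a further list of HIF targets, for collagen modification, iron, signalling and other functions, 10 rose (31.2%, where 12.5% of all genes rose) and 2 fell (6.25%, where 11.6% of all genes fell), with a median log2 change of 0.42. CXCR4, a chemokine receptor, rose 7.61-fold (729 ± 610.4 to 5548 ± 1309, adjusted p = 0.0037). SPAG4, a nuclear envelope protein, rose 5.11-fold (81.7 ± 31.5 to 417 ± 132, adjusted p = 0.0038), and P4HA2, a collagen prolyl hydroxylase, 2.88-fold (288 ± 172 to 831 ± 99.7, adjusted p = 0.014). MET, the hepatocyte growth factor receptor, fell 4.97-fold (3363 ± 171 to 676 ± 168, adjusted p = 0.00045), and LONP1, a mitochondrial protease, 2.63-fold (adjusted p = 0.03). P4HA2 did not pass without 3D replicate 1 or 3 or 2D replicate 2 (adjusted p of up to 0.062), nor LONP1 without any library other than 2D replicate 3. Without 2D replicate 3, 15 of this list rose (22.6% of all genes) and the log2 change of CXCR4 grew from 3.21 to 3.85, and without 3D replicate 1, 3 rose (3.9% of all genes). The remaining targets of this list that rose were PLOD1, PLOD2 and LOXL2, which modify or crosslink collagen, HMOX1, which breaks down heme, CCNG2, an atypical cyclin, WSB1, a ubiquitin ligase subunit, and TGFA, a ligand of the epidermal growth factor receptor.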

How the data were processed

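Poly(A) RNA from a column kit (RNeasy) was sequenced on an Illumina NovaSeq after TruSeq v2 library preparation, which does not mark strand, per the labels' protocols. Per the submitters' processing notes, the authors used HISAT2, featureCounts 1.5.0 and DESeq2 with GRCh38 (hg38). Their other versions and the gene annotation are not given in the sources read. The deposited signal values are normalised read counts, 1 column per library. Their steps gave back whole reads for 100% of values in each library within 0.01 read, as read counts divided by 1 size factor per library.

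The members and gene lists were chosen with earlier results of these data known. Results are given by gene for the 32 members, and for up to 3 called genes in each direction of the other regulator, target and ATF4 lists. The remaining called genes of the further list of HIF targets are named without values. Melanocytic markers are described by gene, and the other marker lists mainly as sums. Group and replicate number came from the sample titles. limma 3.58.1 (R 4.3.3) was fitted on log2(value + 1) with culture as the only term, trended eBayes and Benjamini-Hochberg adjustment over genes with a mean of at least 10. A fold change on this scale understates the change of low genes. edgeR 4.0.16 (quasi-likelihood) and DESeq2 1.42.0 were run on the recovered reads as alternatives, with other pseudocounts, filters and scalings, a replicate block and each library left out. edgeR called 3657 genes. The scripts were tested on simulated counts. Gene positions, exon lengths and overlaps are from GENCODE 29 (GRCh38), by gene ID, and symbols were matched for 26506 of 26748 genes.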

Additional observations from a re-analysis of the deposited data

How the results depend on the processing

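Over 17 alternatives, the log2 changes of the 32 genes kept direction and side of the threshold in 490 of the values computed, moved past the threshold in 22, fell short of it in 21 and changed sign in 9. No pseudocount, filter, TMM rescaling, robust fit or edgeR fit changed a call of a tested member. With a filter at a mean of at least 50, CA9 and BHLHE41 were not tested, and 9 targets were higher (10.7% of all genes). With a library left out, targets lower in 3D numbered 0 to 2, regulators higher 1 to 2, regulators lower 1 to 3 and all genes called 1190.0 to 7111. In these fits 3.42% to 22.6% of all genes were higher and 4.21% to 23% lower. Leaving out a library of each culture together (2D replicate 3, 3D replicate 2), 18 targets were higher and 2 lower (28.4% and 29.5% of all genes), and 9041 genes were called. DESeq2 called 1 target lower (14.8% of all genes). The sign turned for genes that did not pass: HIF1A with both libraries left out (-0.020), VHL with equal library totals (0.070), DDIT4 with both left out (-0.23), and, over the fits with 1 library left out, VHL (-0.20 to 0.014), VEGFA (-1.22 to 0.062), DDIT4 (-0.37 to 0.74) and RORA (-0.27 to 0.77). The cause was not tested.

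With the replicate numbers as a replicate block, 3222 genes were called (1748 or 11.2% higher, 1474 or 9.45% lower), 10 targets were higher, and ARNT lost its call (adjusted p = 0.058). Libraries that share a number did not deviate together (correlations across genes of -0.08, -0.14 and 0.04), so the numbers were not taken as pairs. Fewer than 10 reads of CA9 in 2D and in 3D replicate 2 limit its fold change.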
